A study of Mus musculus with 4 samples.

Results

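Neutrophils of the mouse colon that carried the TG_DSS hashtag were compared with neutrophils that carried the TG_WT hashtag. Cells were chosen from 13158 barcodes of 2 batches that had at least 1000 gene UMIs (unique molecular identifiers, which count captured RNA molecules) and 250 genes and at most 25% mitochondrial UMIs. A barcode was taken as a neutrophil when S100a8 and S100a9 together held at least 1% of its UMIs, when it had at least 1 UMI of Csf3r, Cxcr2, Il1r2 or Retnlg, and when it had no UMI of the epithelial genes Epcam and Krt8. A tag was called when its count reached 2.5 times its median over the batch and the other 3 tags stayed below that multiple. This gave 1188 neutrophils, of which 336 in batch 1 and 346 in batch 2 were labelled TG_DSS, and 14 in batch 1 and 181 in batch 2 were labelled TG_WT, 877 cells in all. The 8 genes used to choose the cells (S100a8, S100a9, Csf3r, Cxcr2, Il1r2, Retnlg, Epcam and Krt8) are given below as values, with no test.

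The study profiled dissociated colon of C57/BL6J mice by droplet 3' RNA sequencing, with 1 hashtag antibody for each of 4 conditions: wild type and JUP-KO mice, each without treatment or given dextran sulfate sodium (DSS, an agent that damages the colon lining and causes colitis). JUP is the junction protein plakoglobin. The 4 tagged suspensions of a batch were mixed, sorted for viable cells and loaded together, so a batch contributed 1 gene expression library. TG_DSS is JUP-KO given DSS by the tag's name and by the order of the antibodies in the protocol. TG_WT is JUP-KO without DSS by its name, but wild type given DSS by that order. By name, Ctrl_WT is wild type without DSS and Ctrl_DSS is wild type given DSS. By that order neither Ctrl tag was given DSS, since both DSS conditions fall to the TG tags. These 2 readings could not be told apart from the labels, so all comparisons are between tag names. By the first reading the comparison asks about DSS in JUP-KO mice, and by the second about JUP loss under DSS. The number, sex and age of the mice, the way JUP was removed and whether the batches came from different mice are, in the sources used here, not given. The fit below has the batch as a block and 1 residual degree of freedom, so its spread is largely shared across genes. Its p-values therefore measure neither the variation between mice nor how far a single gene's difference varied between batches. For example, Ptafr, at 0.27 within both batches on the log2 scale, had a standard error (SE) of 0.480. Csf1, at -1.18 and 1.20, had an SE of 0.489. Differences between the batches may be partly technical.

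Neutrophils are short-lived phagocytes that leave the blood for injured tissue, drawn by chemokines that act on the receptor CXCR2. Their cytosol is rich in calprotectin, the S100A8 and S100A9 dimer, and their granules hold proteases and antimicrobial proteins, many of which are transcribed mainly while the cell matures in the bone marrow. In the tissue they make chemokines and interleukin-1, and they respond to interferons. In DSS colitis they are among the most frequent infiltrating cells.

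The depth of single neutrophils was alike in the 4 sums. The median neutrophil had 2921.5 and 3019 UMIs with TG_WT and 2752.5 and 3015.5 with TG_DSS in batches 1 and 2. The median number of genes was 725 and 805 with TG_WT and 748 and 812.5 with TG_DSS. The sums differed far more, because the cell numbers did: 42701 and 599302 UMIs with TG_WT and 1091137 and 1169048 with TG_DSS. The TG_WT sum of batch 1, from 14 cells, limits every comparison below. The median share of mitochondrial UMIs was 1.46% and 0.357% with TG_WT and 1.10% and 0.434% with TG_DSS, so it followed the batch more than the tag. No neutrophil barcode occurred in both batches, and 13 of all 13158 barcodes did.

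The tags themselves were unequal in strength. Neutrophils labelled TG_WT had a median TG_WT count of 56.5 and 36.1 times the batch median, whereas those labelled TG_DSS had a median TG_DSS count of 3.53 and 4.92 times. Many cells of batch 1 lay near the threshold for TG_DSS: 94 of the 336 members were between 2.5 and 3 times the batch median, and 71 neutrophils were just outside, between 2 and 2.5 times. In batch 2 these numbers were 6 and 5. For TG_WT they were 1 and 1 in batch 1 and 2 and 1 in batch 2. In batch 1, 117 neutrophils had no tag, with a median TG_DSS count of 2.14 times the batch median, against 16 untagged neutrophils in batch 2. Near the calprotectin threshold, 11 and 18 neutrophils of batches 1 and 2 had 1 to 2% of their UMIs in S100a8 and S100a9, and 2 and 9 barcodes just outside had 0.5 to 1%.

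The cells matched their label by markers that the rule did not use. All 18 such neutrophil markers were detected, with a summed level of 19086 and 22139 CPM (UMIs per 1000000 UMIs of the sum) with TG_WT and 22436 and 22029.9 with TG_DSS. Hdc, which makes histamine, was at 1803 and 2164 CPM with TG_WT, against 2357 and 2234 with TG_DSS. Ly6g, the standard surface marker of mouse neutrophils, was at 138, 137 and 123 CPM in TG_WT batch 2 and TG_DSS batches 1 and 2, and had no UMI in the 14 cells of TG_WT batch 1. Cd177, another surface marker, was also at 0 there. T and NK markers were at most 10.3 CPM, with Cd3e, Trac, Cd4, Cd8a, Nkg7 and Klrb1c at 0 in every sum. Epithelial markers other than Epcam and Krt8 summed to 963 to 1452 CPM, highest in TG_WT batch 1, and all 12 of them had a UMI. Markers of macrophages and monocytes (13 of 13 detected) summed to 3489 CPM in TG_WT batch 1, against 547 to 796 CPM in the other sums. Markers of B and plasma cells (7 of 8 detected) summed to 10619.8 CPM in TG_DSS batch 2, against 23.4 to 219 CPM in the others. Fibroblast markers (6 of 6 detected) summed to 271 CPM in TG_DSS batch 2, against 0 to 8.34 CPM.

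Jup, the gene removed in the knockout, could not check the labels in neutrophils, which had 1 and 1 Jup UMIs with TG_WT and 3 and 2 with TG_DSS. In barcodes with at least 2 UMIs of Epcam and Krt8 and little calprotectin, Jup was at 67.4 and 78.2 CPM with TG_WT, against 24.2 and 46.2 CPM with TG_DSS. It was at 63.4 and 66.9 CPM with Ctrl_WT and at 14.97 and 9.63 CPM with Ctrl_DSS. Jup was thus lower with TG_DSS than with TG_WT in both batches, and it was lowest with Ctrl_DSS. The sources used here do not say which part of Jup was deleted, so whether 3' counts report the deletion was not tested.

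Neutrophils were a larger share of the cells labelled TG_DSS than of those labelled TG_WT in both batches. With TG_DSS 336 of 1081 cells in batch 1 were neutrophils, 31.1% with an exact (Clopper-Pearson) 95% interval from 28.3 to 33.9, and in batch 2 there were 346 of 1246, 27.8% (25.3 to 30.3). With TG_WT the shares were 2.43% (14 of 576; 1.34 to 4.04) and 14.0% (181 of 1297; 12.1 to 16.0). The mean was 29.4% ± 2.34 for TG_DSS and 8.19% ± 8.15 for TG_WT (SD, n = 2 batches), and the groups did not overlap. The TG_WT share differed widely between the batches. In cells labelled Ctrl_WT, 1 of 113 and 0 of 109 were neutrophils, and in cells labelled Ctrl_DSS 0 of 300 and 3 of 344. The limit that 3 counts of the total set for the 2 zeros is 2.75% (0 of 109) and 1.00% (0 of 300), and their exact intervals reach 3.33% and 1.22%. With barcodes that had Epcam or Krt8 left out of the denominator, the shares were 68.2% and 50.7% for TG_DSS and 14.1% and 30.1% for TG_WT, so the order stayed and the gap in batch 2 narrowed. When neutrophils with 2 or more UMIs of the markers of 1 other cell type were left out, 68 and 44 remained with TG_DSS and 3 and 27 with TG_WT. The denominator was not filtered in the same way and stayed at all cells with the tag. As parts of it, the remaining neutrophils were 6.29% (4.92 to 7.91) and 3.53% (2.58 to 4.71) for TG_DSS. For TG_WT they were 0.521% (0.108 to 1.51) and 2.08% (1.38 to 3.01). The order stayed in each batch and the batch 2 intervals overlapped. No share was tested, since 2 batches against 2 give at best p = 0.333 in a two-sided exact permutation test. The intervals and limits cover counting error only. Tagging, the sort and droplet loading act on these shares, and their part in the difference was not tested.

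**Figure D1:**
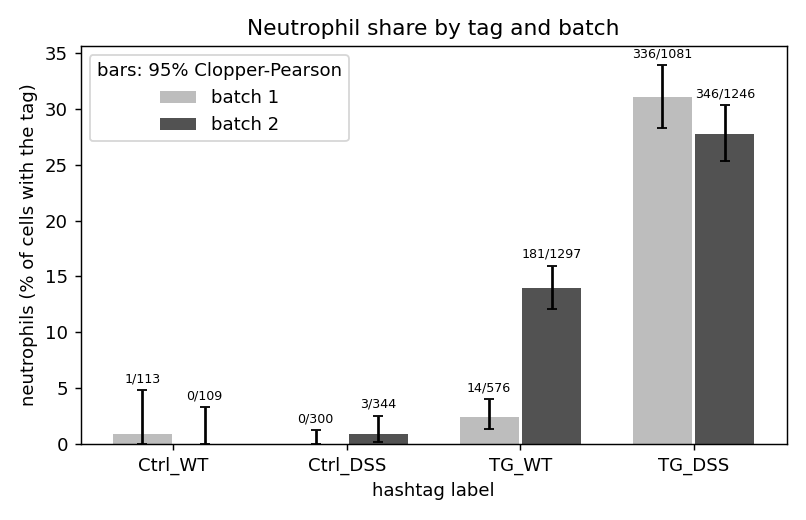
Neutrophils as a percentage of cells with each tag (y axis), by tag (x axis) and batch (light and dark bars), with 95% Clopper-Pearson intervals and the counts above each bar. TG_DSS stands at 31.1% and 27.8%, TG_WT at 2.43% and 14.0%, and neither Ctrl_WT nor Ctrl_DSS exceeds 0.885%.

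The transcripts that dominate a tissue neutrophil had overlapping or close levels with both tags. S100a9 was at 76204 and 125619 CPM with TG_WT, against 102189 and 104708 with TG_DSS, and S100a8 at 42903 and 72723 against 59873 and 60658. The TG_WT batches lay on either side of the TG_DSS batches for both calprotectin genes. The median neutrophil had 12.1% and 20.1% of its UMIs in the calprotectin pair with TG_WT and 15.5% and 16.2% with TG_DSS. Cxcl2, a CXCR2 ligand that neutrophils make themselves, was at 51779 and 32429 CPM with TG_WT, against 61517 and 40004 with TG_DSS. Il1b, which encodes interleukin-1 beta, was at 25339 and 14238 CPM against 28227 and 20748. Both were higher in batch 1 than in batch 2 with either tag, and neither passed the test (Cxcl2 log2 fold change 0.50, SE 0.909; Il1b 0.58, SE 0.784; adjusted p = 0.998 for each, edgeR quasi-likelihood test with Benjamini-Hochberg adjustment). Of the receptors used to choose cells, Csf3r (the receptor of G-CSF) was at 562 and 592 CPM against 652 and 759, and Cxcr2 at 492 and 459 against 416 and 504. Retnlg, a secreted protein of the resistin family, was at 1592 and 8855 CPM with TG_WT, against 6653 and 13033 with TG_DSS, higher in batch 2 with either tag. Its levels overlapped between the tags.

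Across the transcriptome few genes differed between the tags. Of 4523 genes tested, 17 passed at an adjusted p of 0.05 (0.376%), 7 higher with TG_DSS (0.155%) and 10 lower (0.221%). The test was edgeR's quasi-likelihood test on the 4 summed profiles with the batch as a block, which leaves 1 residual degree of freedom. Without the replicate block only Ccl8 passed (0.0221%). DESeq2 called 6 genes (0.133%). With 1 sum left out and no batch term, 23 genes passed without TG_DSS batch 1, 6 without TG_DSS batch 2, 1 without TG_WT batch 1 and 0 without TG_WT batch 2, where the single TG_WT sum is assumed to vary like the others and 560 genes had an unadjusted p under 0.05 by edgeR. An unadjusted p under 0.05 was reached by 129 genes (2.85%). In simulated data of the same sizes the test found 3 of 50 genes changed by 1 on the log2 scale, 38 of 50 changed by 2 and 48 of 50 changed by 3. Small changes were thus mostly missed. The changed genes had at least 50 CPM, changed alike in both batches and shared 1 dispersion. Recovery of weaker genes, or of changes held by 1 droplet, was not tested.

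**Figure D2:**
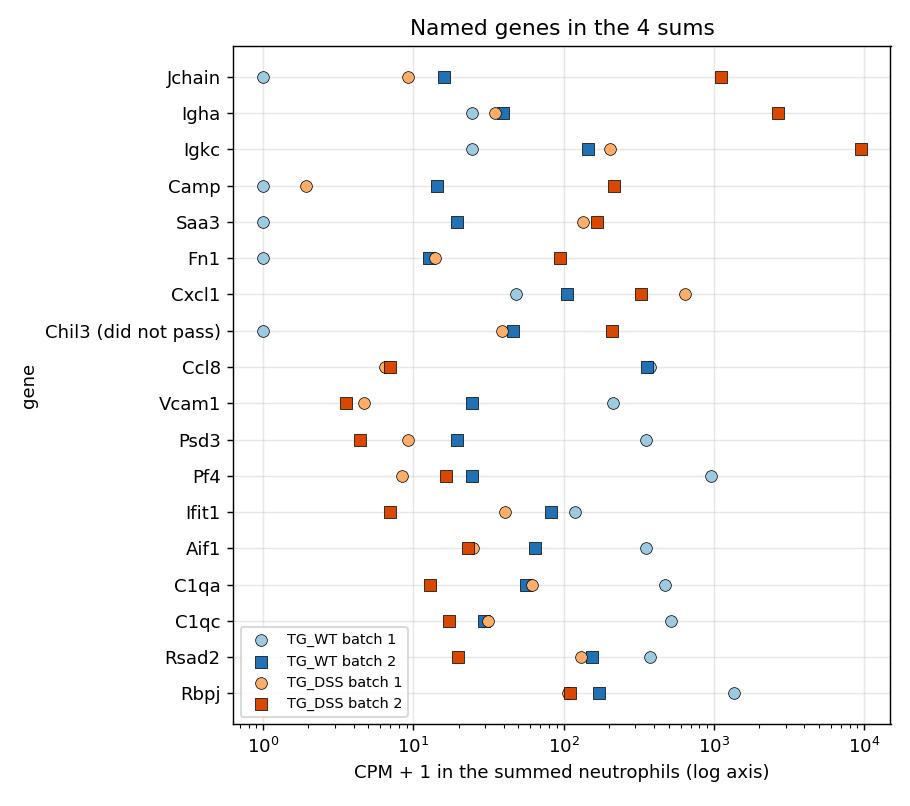
Level of the 17 genes that passed, and of Chil3, in the 4 neutrophil sums (x axis, CPM + 1, log axis; y axis, genes; light symbols batch 1, dark symbols batch 2). The immunoglobulin genes and Camp stand apart in TG_DSS batch 2, the macrophage genes Pf4 and C1qc in TG_WT batch 1, and Cxcl1 is higher in both TG_DSS sums than in both TG_WT sums.

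The genes higher with TG_DSS were Jchain, Igha, Igkc, Camp, Saa3, Fn1 and Cxcl1. The first 3 encode antibody chains, made by plasma cells. Igkc was at 23.4 and 145 CPM with TG_WT, against 202 and 9480.4 CPM with TG_DSS (log2 fold change 5.76, SE 0.865, adjusted p = 3.67e-08). In TG_DSS batch 2, 1 droplet held 10982 of the 11083 Igkc UMIs, 3105 of the 3135 of Igha and 1280 of the 1294 of Jchain. Fn1 (fibronectin, a matrix protein that macrophages also make) was at 0 and 11.7 CPM with TG_WT, against 12.8 and 94.1 CPM with TG_DSS (2.96, SE 0.770, adjusted p = 0.0329), and 1 droplet held 73 of its 110 UMIs in TG_DSS batch 2. The high values of these 4 genes thus lay in 1 sum, for each gene mostly in 1 droplet of it. The droplet rich in Fn1 was not the one rich in Igkc. When droplets rich in markers of another cell type were left out (below), 99 Fn1 UMIs stayed in that sum, against 100 of Igkc.

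The genes lower with TG_DSS were Ccl8, Vcam1, Psd3, Pf4, Ifit1, Aif1, C1qa, C1qc, Rsad2 and Rbpj. C1qa and C1qc encode subunits of complement C1q, made by tissue macrophages, and Aif1 is a macrophage marker. C1qa was at 468 and 55.1 CPM with TG_WT, against 60.5 and 11.98 CPM with TG_DSS (-2.35, SE 0.545, adjusted p = 0.00637). C1qc was at 515 and 28.4 CPM against 30.2 and 16.3 (-2.30, SE 0.570, adjusted p = 0.0184), and Aif1 at 351 and 63.4 CPM against 23.8 and 22.2 (-2.38, SE 0.550, adjusted p = 0.00606). Pf4, a chemokine of platelets and some macrophages, was at 960 and 23.4 CPM against 7.33 and 15.4 (-3.61, SE 0.655, adjusted p = 3.42e-05). In TG_WT batch 1 a single droplet held 41 of 41 Pf4 UMIs, 20 of 20 of C1qa, 22 of 22 of C1qc, 15 of 15 of Aif1, 15 of 15 of Psd3, 9 of 9 of Vcam1 and 54 of 58 of Rbpj, the transcription factor of Notch signalling. Batch 2, with 181 TG_WT cells, showed a smaller difference for these 7 genes, between -0.59 (Pf4) and -2.33 (Vcam1) on the log2 scale.

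Ccl8 (ENSMUSG00000009185, chr11:82115185-82116799, plus strand), a chemokine of monocytes and macrophages, had the lowest p of all genes. It was at 375 and 359 CPM with TG_WT, against 5.50 and 5.99 CPM with TG_DSS, so the groups were far apart in both batches (-5.76, SE 0.615, adjusted p = 5.62e-17; -5.45 and adjusted p = 0.106 without TG_WT batch 2). Its 16 UMIs in TG_WT batch 1 came from 1 droplet. In TG_WT batch 2 its 215 UMIs came from 12 of 181 cells, and the richest of them held 86. With TG_DSS it had 6 UMIs in 6 cells and 7 UMIs in 7 cells. T and B cells had a Ccl8 UMI in 1 of 62 and 11 of 160 barcodes, a share of 1.61% and 6.88%, with a median of 3499.5 and 4239.5 UMIs. These barcodes were taken whatever their tag and were not cleared of macrophage RNA, and 20 of the 160 in batch 2 had a C1qa UMI. In batch 2 the share of neutrophils with a Ccl8 UMI was 6.63% with TG_WT and 2.02% with TG_DSS. With each cell thinned to 1000 UMIs the TG_WT share was 4.42% (1.93 to 8.52), beside 2.50% (0.685 to 6.28) in T and B cells, so those intervals overlapped. The thinned TG_DSS share was 0.578% (0.0701 to 2.07).

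**Figure D3:**
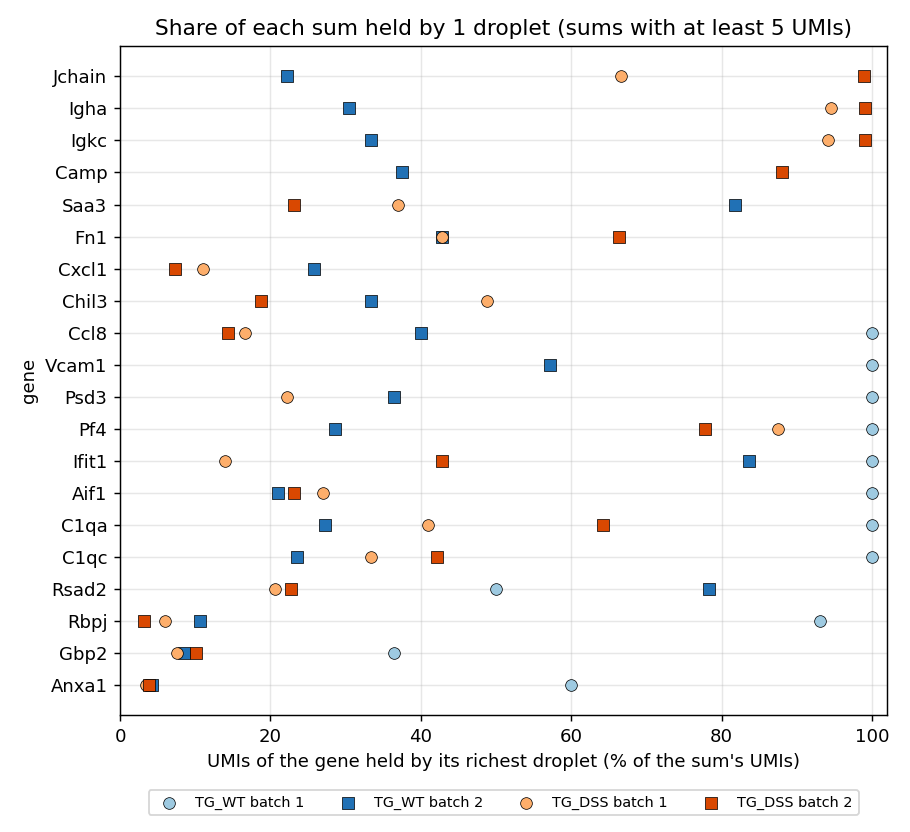
Percentage of a gene's UMIs that its richest droplet held (x axis) in each of the 4 sums with at least 5 UMIs (symbols), for the genes that passed and for Chil3, Gbp2 and Anxa1 (y axis). The immunoglobulin genes reach 99% in TG_DSS batch 2, Pf4, C1qa and C1qc reach 100% in TG_WT batch 1, and Cxcl1 stays at 7.33% and 11.1% with TG_DSS.

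A second count was made without droplets in which the markers of 1 other cell type held at least 1% of UMIs, a step chosen after these values had been seen. It removed 12 of the 877 neutrophils: 1 of 14 and 2 of 181 with TG_WT and 5 of 336 and 4 of 346 with TG_DSS. Of 4258 genes then tested, 7 passed (0.164%), 5 of them among the 17. Camp, Cxcl1, Saa3 and Mt1 were higher with TG_DSS, and Ifit1, Rsad2 and Gbp2 were lower. Igha, Igkc, Aif1 and Rbpj were tested and did not pass (-0.30, -0.25, -1.77 and -0.42). The other 8 of the 17, Jchain, Fn1, Ccl8, Vcam1, Psd3, Pf4, C1qa and C1qc, fell under the filter on low counts and were no longer tested. Ccl8 had 0 and 207 UMIs left in TG_WT and 6 and 7 in TG_DSS. With each cell given equal weight instead (the mean over cells of log2 values, limma, also chosen after seeing the data), only Anxa1 passed (0.0221%).

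The DNA before the start sites of 3 of these 7 genes is shown because Ifit1 and Rsad2, lower with TG_DSS, are known interferon targets, and Cxcl1, higher with TG_DSS, is a known NF-kB target. Each window runs from 200 to 21 bases before the start site in the RefSeq promoter table (build GRCm38.p6) and is written 5' to 3' on the gene's strand. The windows are chr19:34640689-34640868 (plus strand) for Ifit1, chr12:26456473-26456652 (minus strand) for Rsad2 and chr5:90891045-90891224 (plus strand) for Cxcl1, all outside the annotated genes. Capitals mark TTTC, any 2 bases and TTTC again, or the reverse complement (GAAA, any 2 bases, GAAA), the core of the interferon-stimulated response element, in Ifit1 and Rsad2. In Cxcl1 they mark GGGA, any 2 bases and TTCC, an NF-kB motif, and its reverse complement (GGAA, any 2 bases, TCCC), which overlap there.
Ifit1: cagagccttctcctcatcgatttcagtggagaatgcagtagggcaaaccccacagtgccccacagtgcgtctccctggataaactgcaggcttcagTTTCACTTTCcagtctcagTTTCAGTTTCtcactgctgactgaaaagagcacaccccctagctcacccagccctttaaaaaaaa
Rsad2: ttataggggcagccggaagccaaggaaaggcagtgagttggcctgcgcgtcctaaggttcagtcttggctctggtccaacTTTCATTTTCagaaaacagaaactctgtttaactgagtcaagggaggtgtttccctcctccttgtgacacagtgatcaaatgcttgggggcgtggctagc
Cxcl1: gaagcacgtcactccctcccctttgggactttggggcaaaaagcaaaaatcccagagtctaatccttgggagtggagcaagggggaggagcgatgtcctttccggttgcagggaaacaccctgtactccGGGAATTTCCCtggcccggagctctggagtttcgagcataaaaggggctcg
The interferon motif occurred 2 times in the Ifit1 window and 1 time in that of Rsad2. It occurred on either strand in 2.02% of all 32851 promoter windows of this length (663). The NF-kB motif occurred in 0.938% (308). A match is a description of the letters and not evidence of binding.

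Cxcl1 (ENSMUSG00000029380, chr5:90891241-90893115, plus strand), a CXCR2 ligand that recruits further neutrophils, was higher with TG_DSS. Its level was 46.8 and 103 CPM with TG_WT and 637 and 327 CPM with TG_DSS in batches 1 and 2, with no overlap (log2 fold change 2.33, SE 0.520, adjusted p = 0.00347; 2.16, SE 0.456, adjusted p = 0.00322 without droplets of other cell types). The signal was spread over cells: 64 of 336 and 46 of 346 TG_DSS neutrophils had a Cxcl1 UMI, and no droplet held more than 77 of 695 or 28 of 382. With TG_WT 2 of 14 and 12 of 181 neutrophils had one. With each cell thinned to 1000 UMIs the shares were 14.9% and 8.96% for TG_DSS and 0% and 2.76% for TG_WT, and the 0 of 14 allows up to 21.4%. T and B cells thinned alike had 0% and 1.88%. Cxcl1 passed with 7 of 16 alternative settings and kept its sign in all of them. It did not pass without TG_WT batch 1 (2.27, adjusted p = 0.891), without TG_WT batch 2 (3.92, 0.385) or without TG_DSS batch 1 (1.93, 0.629). It also did not pass without the replicate block (2.53, adjusted p = 0.553) or with DESeq2 (2.60, adjusted p = 0.555).

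Cxcl1 was the 1 cytokine or chemokine of the list that passed, of 18 members tested, beside 0.155% of all genes called higher. Of the 18, 12 were above 0, beside 57.5% of all genes. Their median log2 fold change was 0.18, beside 0.09 over all genes. Ccl4, a chemokine of activated myeloid cells, was at 5480.0 and 6908 CPM with TG_WT, against 5935 and 3307 CPM with TG_DSS. Thinned shares of cells with a Ccl4 UMI were 50.0% and 50.3% with TG_WT and 39.3% and 28.0% with TG_DSS, against 12.9% and 11.25% in T and B cells. Ccl3, its close relative, was at 3958 and 1639 CPM against 2526 and 1362. It was lower with TG_DSS within each batch, but did not pass (-0.23, SE 0.533, adjusted p = 0.998). Il23a, a subunit of interleukin-23, was at 23.4 and 51.7 CPM with TG_WT, against 209 and 92.4 CPM with TG_DSS. It did not pass (1.44, SE 0.562, adjusted p = 0.998). Osm (oncostatin M, a cytokine of inflamed gut) was at 562 and 270.3 CPM against 398 and 445, with TG_WT on either side of TG_DSS.

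**Figure D4:**
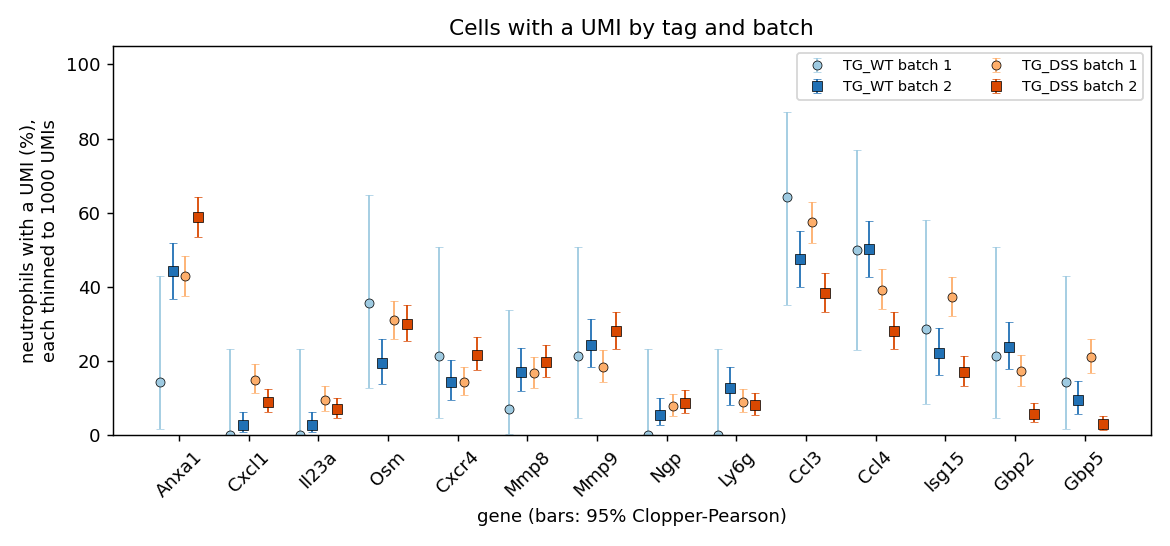
Percentage of neutrophils with a UMI after thinning each cell to 1000 UMIs (y axis), for 14 genes chosen from the lists after their values were seen (x axis), by tag and batch, with 95% Clopper-Pearson intervals. Gbp2 goes from 23.8% to 5.78% between TG_WT and TG_DSS in batch 2, Anxa1 goes from 44.2% to 59.0%, and the intervals of the 14 TG_WT cells of batch 1 are wide.

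Of 24 interferon-response genes tested, 2 passed, Ifit1 and Rsad2, both lower with TG_DSS, beside 0.221% of all genes called lower. The members above and below 0 were 5 and 19, with a median of -0.50, where 57.5% of all genes were above 0. Within batch 1 the median was 0.88 and within batch 2 it was -1.03, beside 0.35 and -0.00 over all genes. Ifit1, which binds foreign RNA, was at 117 and 81.8 CPM with TG_WT, against 39.4 and 5.99 CPM with TG_DSS (-2.52, SE 0.599, adjusted p = 0.00914). Rsad2 (viperin, an antiviral enzyme) was at 375 and 154 CPM against 129 and 18.8 (-2.07, SE 0.519, adjusted p = 0.0199). Both genes were lower in the TG_DSS sum of each batch. In TG_WT batch 1, however, all 5 Ifit1 UMIs came from 1 of 14 cells, and the 16 Rsad2 UMIs from 2 cells. With TG_DSS in batch 1, 20 of 336 cells had an Ifit1 UMI and 31 had an Rsad2 UMI. In TG_WT batch 2, 1 droplet held 41 of the 49 Ifit1 UMIs and 72 of the 92 Rsad2 UMIs. The thinned share of cells with an Ifit1 UMI was 1.66% there and 0.289% with TG_DSS, against 0.625% in T and B cells. For Rsad2 it was 3.31% and 1.73%, also against 0.625%. Without TG_DSS batch 2 the changes were -0.96 and -0.53, and without TG_WT batch 1 they were -1.79 and -0.97, none of which passed. Neither gene passed with DESeq2 (adjusted p = 1.00 for both).

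Gbp2 (ENSMUSG00000028270, chr3:142620602-142638008, plus strand), a guanylate-binding protein induced by interferon gamma, was spread over more cells. Its level was 515 and 472 CPM with TG_WT and 269 and 76.1 CPM with TG_DSS, so the tags did not overlap. The difference did not pass over all 877 cells (-1.65, SE 0.492, adjusted p = 0.182) and passed without the droplets of other cell types (-1.86, SE 0.424, adjusted p = 0.00794). Thinned shares of cells with a Gbp2 UMI were 21.4% and 23.8% with TG_WT and 17.3% and 5.78% with TG_DSS, so most of the gap was in batch 2. Of its family, Gbp5 was at 492 and 182 CPM with TG_WT, against 393 and 52.2 with TG_DSS (-0.89, SE 0.484, adjusted p = 0.998). Isg15, a ubiquitin-like modifier, was at 1148 and 626 CPM against 914 and 326, and its thinned shares of 37.2% and 17.1% with TG_DSS lay on either side of the 28.6% and 22.1% with TG_WT. The most abundant members did not share the direction: Ifitm1 was at 3325 and 6823 CPM with TG_WT, against 6100.1 and 4769.7 with TG_DSS (0.39, SE 0.646, adjusted p = 0.998).

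Proteins of the specific and gelatinase granules were measured with 14 of 15 list members, and 1 of them, Camp, passed, beside 0.155% of all genes called higher. In the fit over both batches the 14 fold changes were above 0, against 57.5% of all genes. Their median was 0.94 (0.09 over all genes), 1.42 within batch 1 and 0.53 within batch 2. Within batch 2 Slpi (-0.30), Lcn2 (-0.27) and Itgam (-0.27) were below 0, and within batch 1 Ltf was (-0.05). Camp, the precursor of the antimicrobial peptide cathelicidin, was at 0 and 13.3 CPM with TG_WT, against 0.916 and 215 CPM with TG_DSS (3.92, SE 0.810, adjusted p = 7.10e-04). The rise rested on 1 droplet of TG_DSS batch 2 with 221 of 251 UMIs, and 7 of 346 cells there had any. Ngp (neutrophilic granule protein) was at 23.4 and 259 CPM with TG_WT, against 137 and 688 with TG_DSS (1.63, SE 0.538, adjusted p = 0.384). A single droplet held 337 of its 804 UMIs in TG_DSS batch 2. Ltf (lactoferrin) was at 23.4 and 16.7 CPM against 15.6 and 88.1, and Chil3, a chitinase-like protein, at 0 and 45.1 against 37.6 and 209.6 (2.28, SE 0.657, adjusted p = 0.136). These early-made granule genes were highest in TG_DSS batch 2 without exception among the 4 named here. In that sum the richest droplet also held 47 of 103 Ltf UMIs and 46 of 245 Chil3 UMIs.

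The more abundant granule genes were found in many cells. Slpi, an inhibitor of neutrophil elastase, was at 1803 and 4726 CPM with TG_WT, against 4793 and 4043 with TG_DSS. Lcn2 (lipocalin-2, which binds bacterial siderophores) was at 1663 and 2902 CPM against 2526 and 2536. For both, TG_WT batch 1 was the low value, and the other 3 sums lay close together. Anxa1 (ENSMUSG00000024659, chr19:20373428-20390944, minus strand; annexin A1, which limits neutrophil recruitment) was at 117 and 896 CPM with TG_WT, against 879.8 and 1361 with TG_DSS. In the summed counts it did not pass (1.56, SE 0.538, adjusted p = 0.506). With cells weighted equally its mean log2 level was 0.47 and 2.31 with TG_WT and 2.22 and 3.06 with TG_DSS, and it passed (1.25, SE 0.275, adjusted p = 0.0270, limma). A thinned Anxa1 UMI was in 14.3% and 44.2% of TG_WT cells and in 42.9% and 59.0% of TG_DSS cells, against 3.23% and 4.38% of T and B cells. Within each batch the share was higher with TG_DSS. The gelatinase Mmp9 was at 141 and 289 CPM against 234 and 368, and the collagenase Mmp8 at 117 and 314 against 250.2 and 363, each higher with TG_DSS within both batches and neither past the test (adjusted p = 0.998).

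Saa3, an acute-phase protein, was at 0 and 18.4 CPM with TG_WT, against 134 and 167 CPM with TG_DSS (3.37, SE 0.674, adjusted p = 3.81e-04; 3.17 without droplets of other cell types, 0.37 with a tag called only when it was 3 times the next). UMIs were in 16 of 336 and 19 of 346 TG_DSS neutrophils and in 0 of 14 and 3 of 181 TG_WT neutrophils. The thinned shares of 3.27% and 3.76% with TG_DSS compare with 0% and 2.50% in T and B cells, a background not cleared of macrophage RNA. In batch 2 the TG_DSS share was close to that background. Mt1 (metallothionein, which binds zinc) was at 281 and 61.7 CPM with TG_WT, against 148 and 462 with TG_DSS. It did not pass over all 877 cells. It passed without droplets of other cell types (2.35, SE 0.561, adjusted p = 0.0173), where its 12 UMIs in TG_WT batch 1, all in 1 droplet, were left out. That was not the only alternative setting in which Mt1 passed. Its thinned share with TG_DSS in batch 2, 9.83%, was below the 11.25% of T and B cells.

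In the other 15 of 18 functional lists no member passed. The p38 MAPK list had 12 of 14 tested members above 0, with a median of 0.56. Its phosphatase Dusp1 was at 2693 and 1605 CPM with TG_WT, against 2911 and 2922 with TG_DSS, and Zfp36, which destabilises cytokine mRNA, at 2623 and 1015 against 2644 and 1759.6. The NF-kB feedback list had 14 of 16 above 0 and a median of 0.41. Nfkbia, the inhibitor of NF-kB, was at 6909 and 3162 CPM against 8221 and 5304, higher with TG_DSS within each batch and overlapping across batches (0.73, SE 0.620, adjusted p = 0.998). Neutrophil transcription factors had 11 of 12 above 0 with a median of 0.51, led by Cebpb at 4895 and 6057 CPM against 7036 and 8038. Cebpb, which drives emergency granulopoiesis, did not overlap between the tags and did not pass (0.69, SE 0.638, adjusted p = 0.998).

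Glycolysis and hypoxia genes had 16 of 24 tested members below 0 and a median of -0.35. Hif1a, the oxygen-regulated transcription factor, was at 492 and 509 CPM with TG_WT, against 259 and 401 with TG_DSS, lower in both (-0.41, SE 0.466, adjusted p = 0.998). Egln3, a hydroxylase that marks HIF-1 alpha for degradation and is itself a HIF target, was at 117 and 58.4 CPM against 20.2 and 20.5, and Ero1l, an oxidase of the endoplasmic reticulum, at 141 and 160.2 against 47.7 and 59.0. Neither Egln3 (unadjusted p = 0.00320) nor Ero1l (0.0136) passed the adjustment, and both are named after their values were seen. All 5 Fc receptors were below 0, with a median of -0.48. Fcer1g, the signalling chain, was nearly level at 4075 and 4095 CPM against 3801 and 3153. The inflammasome list had 7 of 13 above 0 and a median of 0.06, and its sensor Nlrp3 was at 2061 and 1916 CPM against 2613 and 1854.

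Of the remaining lists, integrins and adhesion (9 of 10 above 0, median 0.31), chemotaxis receptors and ageing (9 of 11, 0.28), pattern recognition (10 of 15, 0.37), NADPH oxidase and nitric oxide (7 of 9, 0.32) and AP-1 with dissociation stress (15 of 21, 0.38) had medians above 0, beside 57.5% of all genes above 0. Within batch 2 these 5 medians were 0.11, -0.01, -0.07, -0.17 and 0.10, so those of chemotaxis receptors, pattern recognition and NADPH oxidase were above 0 within batch 1 only, where TG_WT rests on 14 cells. Survival genes were even (7 of 14, -0.00). Cxcr4, which rises as neutrophils age, overlapped between the tags and was at 351 and 120.1 CPM with TG_WT, against 167 and 246 with TG_DSS. Lipid mediators had 3 of 4 above 0 (0.28), and Ptgs2, the inducible cyclooxygenase, was at 2669.7 and 834 CPM against 2055 and 1482. Of azurophil granule proteins 1 of 6 could be tested (Ctsc, -0.57), and of cell cycle genes 2 of 12.

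**Figure D5:**
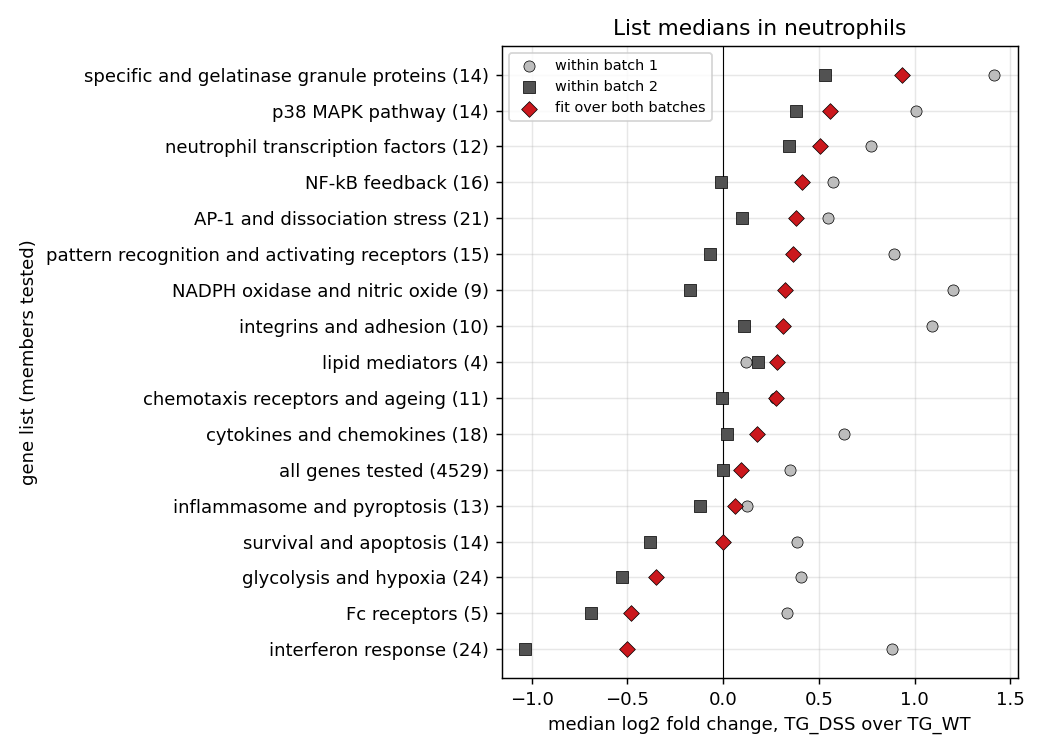
Median log2 fold change of TG_DSS over TG_WT (x axis) for lists with at least 4 members tested (y axis, with the number of members), within batch 1, within batch 2 and in the fit over both. The interferon list is at 0.88 within batch 1 and -1.03 within batch 2, while the specific and gelatinase granule list is at 1.42 and 0.53.

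The batch 1 medians were above 0 for all 18 lists and for all genes together (0.35). The 14 TG_WT cells of batch 1 had a scaling factor of 1.27, against 0.865 to 0.981 for the other 3 sums, and mt-Co1, a mitochondrial transcript, was at 14356 CPM in them against 4966 to 5678 CPM. The part of these differences in the list values was not tested. The values within batch 2 rest on 181 and 346 cells. There the granule, p38 and transcription factor lists stayed above 0, at 0.53, 0.38 and 0.34, and the NF-kB list was at -0.01.

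The change between the tags in neutrophils was then set against that in macrophages and monocytes of the same tags, which were chosen by their own markers (14 and 209 cells with TG_WT, 107 and 184 with TG_DSS, 514 in all). The fit took the batch within each cell type as a term. Neutrophil and macrophage sums of the same tag and batch entered it as independent, though they came from the same tagged suspension. Of 7774 genes tested for a difference of the changes (edgeR, interaction of tag and cell type), 8 passed (0.103%), 5 with a difference above 0 (0.0643%) and 3 below 0 (0.0386%), and 156 had an unadjusted p under 0.05 (2.01%). Of these 8, 4 were among the 17 genes that passed within neutrophils: Jchain, Igha, Igkc and Ccl8. Ccl8 was at 438 and 134 CPM in macrophages labelled TG_WT and at 1569.8 and 871 CPM in those labelled TG_DSS, so it was higher with TG_DSS there in both batches and lower in neutrophils (difference of the log2 changes -7.59, SE 1.27, adjusted p = 5.29e-06). It was the 1 gene that also passed without the replicate block and the 1 gene that passed with DESeq2, but it did not pass when either TG_DSS batch or TG_WT batch 2 was left out. The other 4 genes were Cd163, Folr2, Hbb-bs and Serpina3n. Cxcl1 was at 426 and 404 CPM in macrophages labelled TG_WT and 90.9 and 194 CPM in those labelled TG_DSS, the opposite order to neutrophils, but the difference of the changes did not pass (4.57, SE 1.20, adjusted p = 0.0783). Saa3 was at 3921 and 438 CPM in macrophages labelled TG_WT and 363 and 1203 with TG_DSS, far above its level in neutrophils, though 1 droplet held all 331 of its UMIs in TG_WT batch 1. For Anxa1 the difference was 2.15 (SE 1.22, adjusted p = 1.00) and for Gbp2 -1.51 (SE 1.35, adjusted p = 1.00). In simulated data the interaction fit found 13 of 50 genes changed by 2 on the log2 scale in neutrophils only and 38 of 50 changed by 3. These genes had at least 50 CPM in both cell types and changed alike in both batches.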

How the data were processed

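Gene expression and hashtag UMIs of dissociated mouse colon were measured in 2 batches by 10x 3' sequencing. The authors deposited UMI count matrices made with Cell Ranger 7.0.0 on mm10, per the submitters' processing notes, but the sources used here name no annotation release. All count columns used could be mapped to a sample (0 could not). Barcodes with at least 1000 UMIs and 250 genes and at most 25% mitochondrial UMIs were kept, and tags were called at 2.5 times the batch median. No doublet caller was run, and barcodes over more than 1 tag threshold stayed out of the comparisons between tags. The members and gene lists were chosen with earlier results of these data known.

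Counts of neutrophils were summed per tag and batch (4 sums, each of at least 10 cells) and scaled by TMM. Genes kept by filterByExpr were tested with edgeR 4.0.16 (R 4.3.3) by the quasi-likelihood test with tag and batch as terms, and p-values were adjusted by Benjamini-Hochberg with a threshold of 0.05. Genes used to choose cells had no adjusted p. CPM are UMIs per 1000000 UMIs of the sum. The batch is a block because, per the labels' protocols, the tagged cells of a batch were mixed and processed together. The deviations of sums from the same batch correlated at 0.078 over 4529 genes. DESeq2 1.42.0 and limma 3.58.1 (mean over cells of log2 of UMIs per 10000 plus 1) were alternatives, beside other tag rules, cell filters, scaling and single sums left out. Fits were tested on simulated data, in which 3 unchanged genes were called between the tags and 0 in the comparison with macrophages. For shares of cells with a UMI, each cell was thinned to 1000 UMIs, so that no cell was left out for depth. T and B cells were barcodes with at least 2 UMIs of their markers, no UMI of Epcam or Krt8 and under 1% calprotectin. They were taken whatever their tag, also with no tag or more than 1, so this background was not matched by tag. Barcodes with macrophage RNA were not left out of them.

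Genes were named by rule: up to 15 rising and 15 falling genes past the test that changed alike in both batches with at least 50 CPM in the higher tag, filled up to 8 by smallest p, then list members past the test, the most abundant members of each list, the genes used to choose cells, and Jup. Other genes, and those past the test outside these conditions, were chosen after their values were seen. Of 32285 gene IDs, 32158 (99.6%) matched GENCODE M21 (mm10), the source of gene positions. Python 3.11.15 with numpy 2.4.6, scipy 1.17.1, pandas 2.3.3 and matplotlib 3.10.9 was used.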

Additional observations from a re-analysis of the deposited data

Results flagged for a closer look

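The change from TG_WT to TG_DSS differed between neutrophils and macrophages and monocytes for 8 genes, by the edgeR interaction test with Benjamini-Hochberg adjustment. A fitted log2 difference for a gene with no UMI in a sum depends on the added prior count and is no bound, so the UMIs are given beside it.

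The difference was 14.66 for Jchain (SE 2.02, adjusted p = 2.93e-09), 11.94 for Igha (SE 1.91, adjusted p = 1.75e-06) and 10.94 for Igkc (SE 1.91, adjusted p = 2.15e-05). In batch 2 these antibody genes were higher with TG_DSS in neutrophils and lower with TG_DSS in macrophages. In batch 1 macrophages had 0 UMIs of all 3 with TG_WT and 0, 1 and 5 UMIs of Jchain, Igha and Igkc with TG_DSS. In macrophages labelled TG_WT in batch 2, the richest droplet held 1500 of 4079 Jchain UMIs, 1905 of 4820 Igha UMIs and 9522 of 21576 Igkc UMIs. In neutrophils labelled TG_DSS in batch 2 it held 1280 of 1294, 3105 of 3135 and 10982 of 11083.

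For Ccl8 the difference was -7.59 (SE 1.27, adjusted p = 5.29e-06). Ccl8 UMIs in macrophages were 37 and 199 with TG_WT and 933 and 1015 with TG_DSS, and the richest droplet held 15, 62, 296 and 242 of them. Cd163, a scavenger receptor of tissue macrophages, differed by -11.61 (SE 2.13, adjusted p = 8.34e-05). In neutrophils Cd163 had 7 UMIs, all in 1 droplet of TG_WT batch 1, while in macrophages it was at 0 and 13.5 CPM with TG_WT and 33.6 and 154 CPM with TG_DSS. Folr2, a folate receptor of the same cells, differed by -11.32 (SE 2.19, adjusted p = 2.44e-04), with 4 UMIs in 1 droplet of TG_WT batch 1 and 2 UMIs in batch 2.

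Hbb-bs, a globin of red blood cells, differed by 9.04 (SE 1.75, adjusted p = 2.44e-04). A single macrophage droplet of TG_WT batch 2 held 6659 of 6673 Hbb-bs UMIs, and neutrophils were at 0 to 15.02 CPM. Serpina3n, a protease inhibitor, differed by 14.48 (SE 2.81, adjusted p = 2.44e-04). In neutrophils labelled TG_DSS in batch 2, 1 droplet held 70 of its 75 UMIs, and in macrophages labelled TG_WT in batch 2, 1 droplet held 12 of 19.

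Barcodes over the threshold of more than 1 tag entered no comparison between the tags, and neutrophils were found among them. They made up 9.95% in batch 1 (19 of 191, 95% Clopper-Pearson interval 6.1 to 15.1) and 24.6% in batch 2 (155 of 629, 21.3 to 28.2). These neutrophils had a median of 4907 and 5981 UMIs.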

How the results depend on the processing

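The number of genes past the threshold, 17 with all 4 sums, was 18 with no filter on low counts and 20 without TMM, but 9 of the 18 and 16 of the 20 were among the 17. It was 1 without the replicate block and 6 with DESeq2, and leaving out 1 sum gave 0 to 23. It was 14 and 17 with tags called at 2 and 4 times the batch median, 6 with the highest tag at 3 times the next, 8 with at most 10% mitochondrial UMIs and 4 with at least 3% of UMIs in calprotectin. It was 6 without droplets over 3 times the median UMIs. Of the settings chosen after seeing the data, leaving out droplets with 1% of UMIs of another cell type gave 7 and the mean over cells with limma 1. Leaving out droplets with 2 or more UMIs of another cell type was not run for genes, since under 10 cells of TG_WT batch 1 were left. Settings were changed 1 at a time, and the cause of each shift was not tested.

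Directions turned for 4 genes. Jchain was at -0.20 and Igha at -0.42 without droplets over 3 times the median UMIs. Igha was at -0.19 with 3% calprotectin, and Igha and Igkc at -0.30 and -0.25 without droplets of another type and at -0.12 and -0.04 with limma. Fn1 was at -0.31 with the highest-tag rule. Over the 18 genes named by the test and its fill, 263 alternative values were 108 on the same side of the threshold, 146 no longer past it, 1 newly past it and 8 of the opposite sign. The median over all genes, 0.09, moved to 0.41 with no filter, -0.01 without TMM, 0.15 with DESeq2 and 0.59 without TG_WT batch 2. Of 288 list medians, 257 moved by less than the spread.

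With barcodes with Epcam or Krt8 left out of the denominator, the mean neutrophil shares moved to 59.4% for TG_DSS and 22.1% for TG_WT. With neutrophils of 2 or more UMIs of another cell type left out of the numerator only, they were 4.91% and 1.30% of all cells with the tag. For the shares this setting was also chosen after seeing the data. Single batches gave 27.8% to 31.1% and 2.43% to 14.0%. The 8 genes that differed from macrophages became 1 without the replicate block, 1 with DESeq2 and 0 to 9 with 1 sum left out. Depth limits TG_WT batch 1 most, at 14 cells and 42701 UMIs, where 0 cells with a UMI of a gene allow a share of up to 21.4% of cells with a UMI.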
